A study of Mus musculus with 21 samples.

Results

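Messenger RNA was compared in cells of the RAW 264.7 line, macrophage-like cells from a mouse tumour induced by Abelson murine leukaemia virus, given 20 µg/ml against 5 µg/ml of amorphous silica particles 10 nm across. It asked which genes were switched on or off by this 4-fold step in mass dose. The arrays were chosen by their titles, 3 at the mid dose of 20 µg/ml and 3 at the low dose of 5 µg/ml, 6 of the 21 arrays of the series. Both groups were exposed for 2 h in serum-free medium, and the labels name no genetic change in any group. Set beside them were 3 arrays at the high dose of 50 µg/ml of the same particles, 3 arrays each at 1000 and 250 µg/ml of 500 nm particles, and 3 arrays of untreated cells. The 3 arrays at 500 µg/ml of 500 nm particles entered only the shared estimate of the spread. The labels do not say whether untreated cells were also moved to serum-free medium, so in any comparison with them that change and the particles cannot be told apart; the 20 and 5 µg/ml cells both had it. Nor do they call the replicates separate cultures. Each p-value therefore weighs a difference only against the scatter among the 3 arrays of a group, pooled over all 7 groups of the series. That scatter may be technical in part or whole.

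Macrophages take up particles and answer within hours with immediate early genes, whose transcription needs no new protein because the factors that start it are already in the cell. Many of these genes encode transcription factors themselves (the FOS, JUN, EGR, KLF and NR4A families), while others encode phosphatases and RNA-binding proteins that shut the same signals off. Chemokines such as CXCL2 and CCL2, which draw neutrophils and monocytes, are secreted products of the same early phase. Their transcripts are short-lived, and so are many of the transcripts that fall soon after a stimulus.

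The promoters of 5 of the genes with the largest rises are shown because their levels moved together over the step and because they hold elements on which early signals are known to act. Each is the 250 bases before the annotated start in the mouse RefSeq annotation (GRCm38.p6), read 5′ to 3′ on the gene's strand. Nr4a1 lies at chr15:101266596-101266845 on the plus strand, Egr2 at chr10:67537619-67537868 on the plus strand, Dusp1 at chr17:26508473-26508722 on the minus strand, Rcan1 at chr16:92400079-92400328 on the minus strand and Cxcl2 at chr5:90903649-90903898 on the plus strand. Of the 5 annotated windows of Egr2 and the 2 of Rcan1, the one with the most matches is printed. Capitals mark TGACG on either strand (CGTCA where it reads on the other strand), the core of the cyclic AMP response element bound by CREB and ATF factors. In Egr2 they also mark a CArG box, the site of serum response factor, and in Cxcl2 a kappa B motif, the site of NF-kB.
Nr4a1: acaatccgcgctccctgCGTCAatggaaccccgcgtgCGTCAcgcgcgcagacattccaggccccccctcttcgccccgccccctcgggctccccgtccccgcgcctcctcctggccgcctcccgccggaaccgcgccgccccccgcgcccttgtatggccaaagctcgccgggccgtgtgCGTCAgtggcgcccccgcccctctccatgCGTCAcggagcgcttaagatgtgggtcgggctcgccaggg
Egr2: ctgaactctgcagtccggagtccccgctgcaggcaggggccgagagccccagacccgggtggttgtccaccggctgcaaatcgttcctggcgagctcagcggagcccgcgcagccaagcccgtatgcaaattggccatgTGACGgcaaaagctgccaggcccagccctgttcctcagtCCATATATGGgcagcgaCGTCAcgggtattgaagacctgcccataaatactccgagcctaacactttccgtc
Dusp1: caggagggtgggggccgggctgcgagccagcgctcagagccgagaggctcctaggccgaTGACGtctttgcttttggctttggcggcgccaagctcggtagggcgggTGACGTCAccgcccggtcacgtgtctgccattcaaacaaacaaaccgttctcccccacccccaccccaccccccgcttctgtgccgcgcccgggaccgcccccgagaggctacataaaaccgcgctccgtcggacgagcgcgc
Rcan1: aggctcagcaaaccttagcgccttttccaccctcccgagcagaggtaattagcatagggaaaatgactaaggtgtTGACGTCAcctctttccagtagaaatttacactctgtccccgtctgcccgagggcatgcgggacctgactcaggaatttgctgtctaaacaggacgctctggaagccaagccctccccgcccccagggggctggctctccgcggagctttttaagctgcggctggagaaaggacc
Cxcl2: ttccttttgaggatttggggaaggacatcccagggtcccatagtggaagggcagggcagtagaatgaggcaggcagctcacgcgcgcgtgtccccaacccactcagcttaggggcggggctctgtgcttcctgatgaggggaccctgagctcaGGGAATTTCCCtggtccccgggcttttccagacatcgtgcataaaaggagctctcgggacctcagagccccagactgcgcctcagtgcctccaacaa
The Nr4a1 window held 4 matches to TGACG. Dusp1 had 3 and Rcan1 had 2, and in both genes the full palindrome TGACGTCA accounts for a pair of these, since it reads TGACG on each strand. Egr2 had 2 matches to TGACG and 1 CArG box, and Cxcl2 had no TGACG but a stretch that gives 2 overlapping kappa B matches. Next, each gene was counted once, as having a motif if at least 1 of its windows of this length held it. TGACG was found for 40.7% of 140 genes that rose, 30.1% of 302 genes that fell and 27.0% of all 9887 tested genes with a window. A gene with several windows had more places for a match, and the number of windows a gene was not compared between the sets. TGACGTCA was in 7.86%, 2.98% and 2.53% of the same sets, and the AP-1 motif TGANTCA in 11.4%, 2.65% and 6.84%. The kappa B motif was in 8.57%, 7.95% and 5.47%, and the CArG box in 2.14%, 1.66% and 1.6%. Shares of windows are a different measure from these shares of genes. Over all 32851 windows of the annotation, they were 17.8% for TGACG, 1.55% for TGACGTCA, 6.75% for TGANTCA, 3.9% for the kappa B motif and 1.47% for the CArG box. These shares are descriptions without a test; both strands were searched.

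Values are given on a log2 scale, on which a difference of 1 is a change of 2-fold. The array values carry no detection calls, so a gene's state could not be read as on or off, and its levels at the doses are given instead. Arrays of one dose correlated at 0.990 to 0.998 over all probe sets, against 0.986 to 0.993 between the doses, and no pair of arrays was identical. The 3′ minus 5′ difference of the actin and Gapdh control probe sets, which tracks RNA integrity, was 0.28 ± 0.17 at 20 µg/ml and 0.50 ± 0.04 at 5 µg/ml (log2, SD, n = 3 arrays each). In untreated cells it was 1.15 in replicate 3, against 0.17 in each of replicates 1 and 2. At 50 µg/ml it was 0.95 in replicate 3, against 0.25 and 0.26 in replicates 1 and 2. Comparisons with untreated cells or with 50 µg/ml use these arrays. The part of the 3′ minus 5′ difference in any of the results was not tested. Macrophage markers were high at both doses, their mean lying between 10.52 and 10.69 on the 20 µg/ml arrays and between 10.59 and 10.69 on the 5 µg/ml arrays. Of the 11 measured, 1 passed the test, Mpeg1, which fell by 0.41 and was not called once the arrays were rescaled to a common spread (adjusted p = 0.659, within 0.000787 to 0.659 over its alternatives) or without replicate 3 at 5 µg/ml or replicate 1 at 20 µg/ml. The mean of each of the other 7 marker lists stayed between 4.0 and 5.49 on these 6 arrays, and of their 60 measured genes 1 rose (Ocstamp, by 0.73) and 1 fell (Ighm, by 0.45). Another 6 probe sets of Ighm changed by 0.074 to 0.17 in the other direction, none of them called, and its call was lost on rescaling (adjusted p = 0.584, within 3.35e-05 to 0.584 over its alternatives).

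Between 5 and 20 µg/ml more transcripts fell than rose, while the rises held more changes of 2-fold or more. Of 22626 probe sets, 888 (3.92%) passed the test at an adjusted p under 0.05, with 302 higher (1.33%) and 586 lower (2.59%) at 20 µg/ml. The arrays of the doses did not overlap in 302 of 302 called rises and 585 of 586 called falls; among all probe sets 7.06% were apart upwards and 13.3% downwards. Rises of 2-fold or more were called in 103 probe sets, against 38 falls of that size. Taken as genes, each by its brightest probe set, 170 of 12393 (1.37%) rose and 373 (3.01%) fell. The median called rise was 0.78 (1.71-fold) and the median called fall was -0.57 (1.48-fold lower); 24.7% of the rises and 53.4% of the falls were under 1.5-fold. The median change of all probe sets was -0.01. The count of falls depended on single arrays, being 261 without replicate 1 at 20 µg/ml, 272 without replicate 2 at 5 µg/ml and 358 without replicate 3 at 20 µg/ml. With every array brought to a common centre and spread, 320 probe sets were higher and 331 lower, so that 49.2% of calls were rises in place of 34.0%.

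The 5 to 20 µg/ml interval held most of the calls of the dose series. At 5 µg/ml against untreated cells, 140 probe sets (0.619%) were called, 110 higher (0.486%) and 30 lower (0.133%); the falls were 5, 11 and 12 without replicate 1 or 3 at 5 µg/ml or replicate 3 of the untreated cells. At 50 against 20 µg/ml limma called 0 probe sets (0%) in either direction. There, 979 had an unadjusted p under 0.05, and a fit with array weights called 421 higher and 539 lower. Neighbouring segments share arrays, and their dose intervals differ: the mass dose rose 4-fold over the middle segment and 2.5-fold over the last, while the first begins at no particles.

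**Figure D1:**
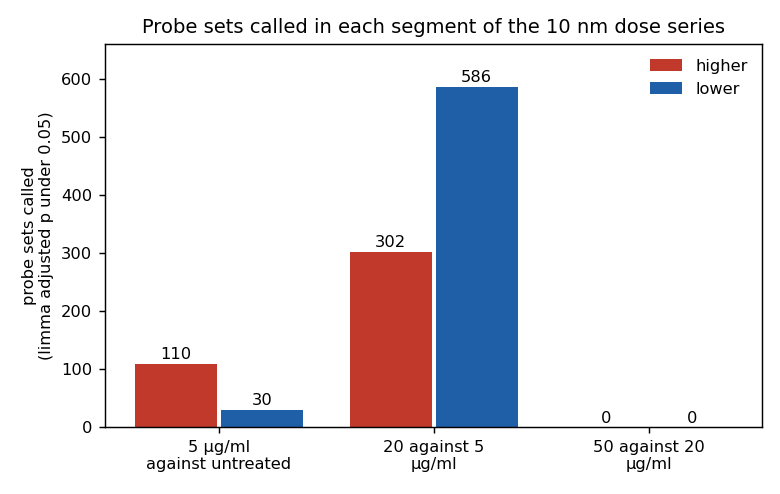
Number of probe sets called by limma at an adjusted p under 0.05 in each segment of the 10 nm dose series, of 22626 tested; red bars are higher and blue bars lower at the larger dose. The middle segment has 302 higher and 586 lower, the first 110 and 30, and the last 0 and 0.

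Immediate early genes led the rises. Of 35 measured members of that list, 25 rose and 0 fell, with a median change of 1.36, where 1.37% of all genes rose. This list, like the others, was chosen with earlier results of these data known, so its share is a description and not a test. Rhob, which encodes a small GTPase of endosomes and the actin cytoskeleton, had log2 values of 11.30, 11.12 and 10.53 at 20 µg/ml, against 7.05, 7.09 and 6.48 at 5 µg/ml. Every array at 20 µg/ml stood more than 3 log2 units above every array at 5 µg/ml, a rise of 4.11 ± 0.28 (SE), or 17.3-fold (adjusted p = 2.25e-08). Klf2, a zinc finger factor that restrains macrophage activation, had 10.22, 10.53 and 10.60 at 20 µg/ml, against 7.04, 6.82 and 6.68 at 5 µg/ml. It rose by 3.60 ± 0.13, or 12.1-fold (adjusted p = 4.81e-12), with tight replicates in both groups.

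The orphan nuclear receptors of the NR4A family, which act without a known ligand, did not move alike. Nr4a1 had 10.89, 11.08 and 10.53 at 20 µg/ml, against 7.55, 7.59 and 7.73 at 5 µg/ml, and the groups were far apart. Its rise was 3.21 ± 0.18 (9.27-fold, adjusted p = 2.49e-09). Nr4a2 had 7.04, 7.66 and 7.58 at 20 µg/ml, against 5.56, 5.52 and 5.43 at 5 µg/ml, a rise of 1.92 ± 0.13 (adjusted p = 2.03e-08). Nr4a3 had 7.32, 7.03 and 7.74 at 20 µg/ml, against 7.08, 6.93 and 7.40 at 5 µg/ml, and its overlapping groups differed by 0.23 (adjusted p = 0.71).

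Among the EGR zinc finger factors, Egr2 had 11.22, 11.29 and 11.50 at 20 µg/ml, against 8.17, 8.35 and 8.23 at 5 µg/ml. This was a rise of 3.09 ± 0.15 (8.49-fold, adjusted p = 2.77e-10). Egr1, already high at the lower dose, had 12.44, 12.52 and 12.83 at 20 µg/ml, against 11.14, 10.83 and 11.14 at 5 µg/ml, and rose by 1.56 (adjusted p = 1.0e-05). Egr3 differed by 0.45 (adjusted p = 0.17) although its groups did not overlap.

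The AP-1 subunits, which pair as FOS and JUN proteins, were read as a family after their values were seen. Of 7 members 5 rose and 0 fell, where 1.37% of all genes rose and 3.01% fell. Fos had 9.32, 9.42 and 9.77 at 20 µg/ml, against 6.81, 6.42 and 6.82 at 5 µg/ml. It rose by 2.82 ± 0.19 (7.05-fold, adjusted p = 3.35e-08). Fosl1 rose by 1.57, Jun by 1.48, Fosb by 1.42 and Junb by 1.34, while Fosl2 and Jund differed by 0.45 and 0.69 without passing the test. Atf3, a stress-induced repressor and partner of JUN, had 12.34, 12.44 and 12.24 at 20 µg/ml, against 10.72, 10.89 and 10.74 at 5 µg/ml, and rose by 1.55 (adjusted p = 4.08e-08).

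**Figure D2:**
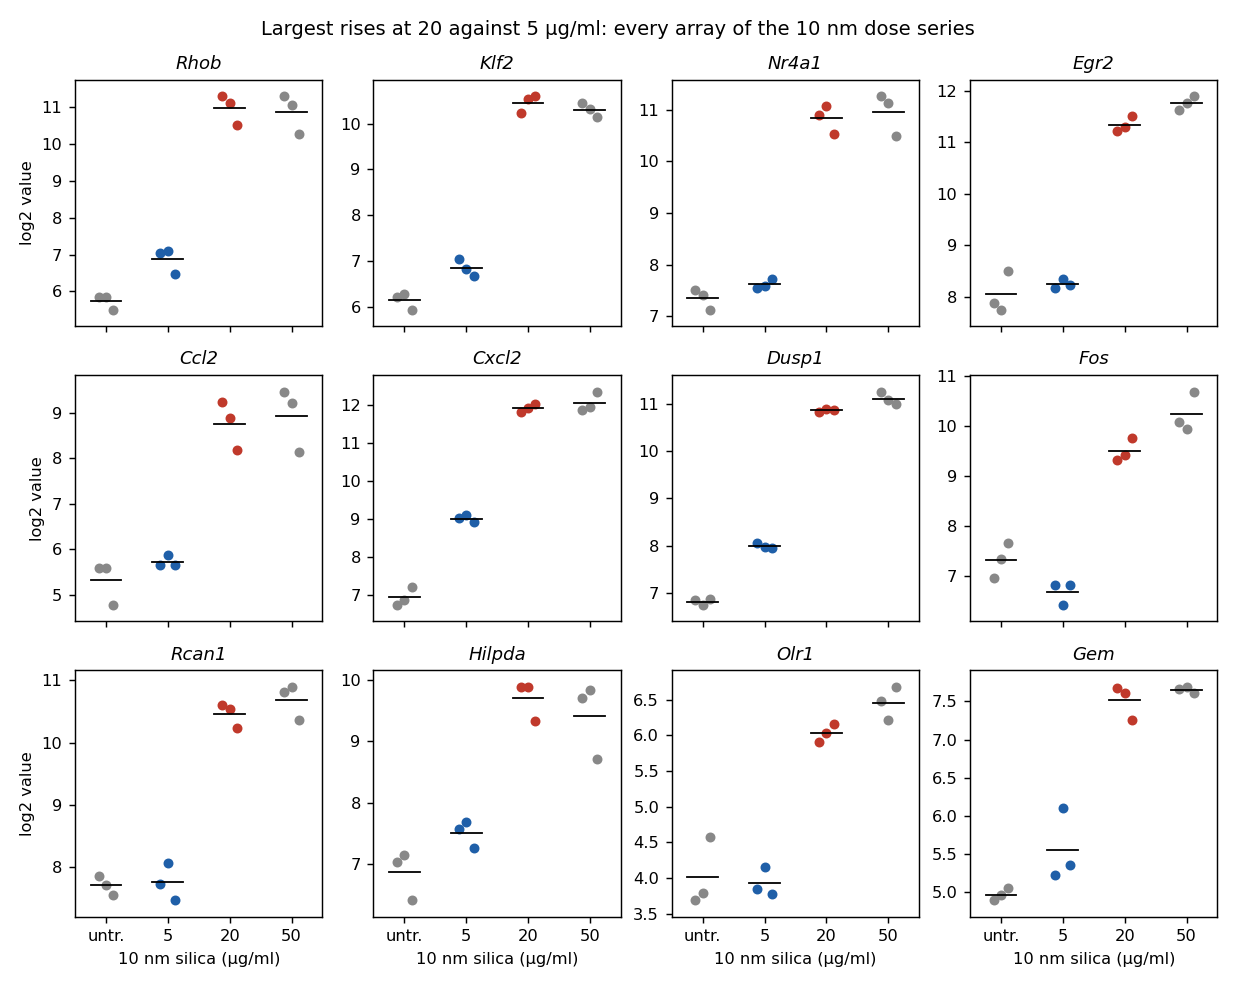
Log2 values of every array for the 12 genes with the largest rises at 20 (red) against 5 µg/ml (blue), with untreated cells and 50 µg/ml in grey; dots are arrays and lines are means of 3, and each panel has its own axis. In all 12 panels the red points lie above the blue ones. Of the 12, Cxcl2, Dusp1 and Klf2 were also called higher at 5 µg/ml than in untreated cells, by 2.07, 1.18 and 0.70.

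Genes that limit early signals rose beside these factors. Dusp1, the nuclear phosphatase that inactivates the p38 and JNK kinases, had 10.84, 10.90 and 10.86 at 20 µg/ml, against 8.06, 7.96 and 7.95 at 5 µg/ml. Replicates were tight in both groups, and the rise of 2.88 ± 0.09 (7.35-fold) had the smallest adjusted p among the genes named here (1.18e-12). In the list of MAP kinase phosphatases and feedback genes, 7 of 18 rose and 1 fell, with a median change of 0.33, where 1.37% of all genes rose and 3.01% fell. Dusp2 rose by 1.37, Dusp16 by 0.92, and the G protein regulators Rgs1, Rgs16 and Rgs2 by 1.11, 0.95 and 0.72. The member that fell was Dusp6, the cytoplasmic phosphatase of ERK, with 7.27, 7.13 and 7.0 at 20 µg/ml, against 8.14, 8.07 and 7.96 at 5 µg/ml (fall of 0.93 ± 0.15, adjusted p = 0.000746). Rcan1, an inhibitor of the phosphatase calcineurin, had 10.60, 10.53 and 10.23 at 20 µg/ml, against 7.73, 8.07 and 7.47 at 5 µg/ml. It rose by 2.69 ± 0.18 (6.47-fold, adjusted p = 1.77e-08). Of 15 mRNA decay factors 2 rose, Zfp36 by 1.52 and Btg2 by 1.68; Zfp36 encodes tristetraprolin, which destabilises cytokine transcripts.

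Some secreted factors rose and others did not. In the cytokine and chemokine list 10 of 28 rose and 0 fell, where 1.37% of all genes rose and 3.01% fell, and the list's median change was 0.15. Cxcl2 had 11.83, 11.92 and 12.05 at 20 µg/ml, against 9.03, 9.10 and 8.92 at 5 µg/ml, a rise of 2.92 ± 0.13 (7.55-fold, adjusted p = 4.6e-11). Ccl2 had 9.22, 8.87 and 8.17 at 20 µg/ml, against 5.65, 5.88 and 5.66 at 5 µg/ml. It rose by 3.02 ± 0.30 (8.14-fold, adjusted p = 5.11e-06), with a wider spread at the higher dose than at the lower. Il1rn, the antagonist of the interleukin 1 receptor, rose by 1.78, Ccl4 by 1.55, Lif by 1.30 and Tnf by 1.08. The interleukins themselves did not pass: Il6 differed by -0.01 (adjusted p = 0.996), Il1b by -0.06 (adjusted p = 0.962) and Il1a by -0.05 (adjusted p = 0.958), with groups that overlapped for all 3.

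The NF-kB pathway and feedback list had more falls than rises, with 1 of 21 members higher and 4 lower and a median change of -0.13, where 1.37% of all genes rose and 3.01% fell. The member that rose was Gadd45b, a stress-induced regulator of kinase signalling, by 0.92. Those that fell were Nfkbie, an inhibitor of NF-kB, by 0.73, the ubiquitin ligases Birc2 and Birc3 by 0.63 and 0.62, and Tnip1, a partner of the A20 deubiquitinase, by 0.53. The classical feedback genes differed without passing, Nfkbia by -0.32 (adjusted p = 0.691) and Tnfaip3 by 0.11 (adjusted p = 0.899). Nfkbie was not called without replicate 2 at 5 µg/ml (adjusted p = 0.15) or without replicate 1 or 2 at 20 µg/ml (0.103 and 0.126), within a range of 0.00112 to 0.15 over its alternatives.

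Among p53 and DNA damage genes 8 of 24 rose and 3 fell, with a median change of 0.13, where 1.37% of all genes rose and 3.01% fell. Beside Sesn1 the fallers were Zmat3 (0.66) and Xpc (0.61), which were not called without 2 and 6 of the 6 arrays left out in turn. Plk2, a polo-like kinase, had 10.84, 10.60 and 9.96 at 20 µg/ml, against 8.72, 8.69 and 8.55 at 5 µg/ml, and rose by 1.81 ± 0.26 (adjusted p = 0.000317). Plk3 rose by 1.57, while the cell cycle inhibitor Cdkn1a rose by 0.62 and Mdm2, the ligase that degrades p53, by 0.47. Btg2, which is in this list too, rose by 1.68 but was not called without any one of replicates 2 and 3 at 5 µg/ml or replicates 1 and 2 at 20 µg/ml (adjusted p of 0.101, 0.0906, 0.144 and 0.0927, within 2.19e-05 to 0.144 over its alternatives). Sestrins, which restrain growth signalling under stress, split: Sesn1 fell by 1.16, whereas Sesn2 rose by 0.99 and was not called without replicate 1 or 2 at 5 µg/ml or replicate 2 or 3 at 20 µg/ml (adjusted p of 0.0593, 0.159, 0.0587 and 0.114, within 0.000401 to 0.159 over its alternatives). Of 19 apoptosis regulators 2 rose and 4 fell. The risers were Bcl2l11 (1.24) and Bbc3 (1.06), death-promoting members of the BCL2 family. The fallers were Bid, another death-promoting member of that family, by 0.51, the initiator caspase Casp9 by 0.62, and Birc2 and Birc3, named above among the NF-kB genes. Casp9 lost the call in 5 of the 6 fits that left out 1 array. Members that promote death thus passed the test in both directions.

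Other stress lists are read against the shares over all genes, 1.37% higher and 3.01% lower. In the unfolded protein and integrated stress response list 6 of 31 rose and 0 fell (median 0.07), led by Ppp1r15a at 1.54, whose product brings a phosphatase to eIF2, and the chaperone partner Dnajb9 at 1.05. The NRF2 list had 1 riser, Srxn1 (0.67), and 1 faller, Keap1, in 20, which is near those shares. The heat shock list had 1 riser in 19, Dnajb1 (0.83), which was not called after rescaling to a common spread (adjusted p = 0.0551, within 1.45e-05 to 0.0551 over its alternatives). Of 10 metal response genes 2 rose, among them the zinc exporter Slc30a1 by 0.80. The hypoxia and glycolysis list had 2 risers and 2 fallers in 24. Of its risers, Hilpda, a lipid droplet protein, rose by 2.20 ± 0.26 (adjusted p = 3.38e-05) and Ndrg1 by 1.91 ± 0.11 (adjusted p = 4.17e-09), while Hif1a differed by 0.04 (adjusted p = 0.925).

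Surface receptors and lipid genes changed in both directions. Olr1, the lectin-like receptor for oxidised lipoprotein, had 5.90, 6.04 and 6.16 at 20 µg/ml, against 3.85, 4.16 and 3.78 at 5 µg/ml. It rose by 2.11 ± 0.19 (adjusted p = 9.04e-07). Its values at 5 µg/ml lie near the low end of the scale, where signal and background cannot be told apart, so no fold is given. It was the 1 riser among 32 scavenger and phagocytic receptors, of which 2 fell, counts near the shares over all genes (1.37% and 3.01%). The fallers, Tlr2 (0.50) and Tlr4 (0.66), were not called without 2 and 5 of the 6 arrays left out in turn. Msr1 and Marco, scavenger receptors known to bind silica, differed by 0.03 and 0.07 with overlapping groups (adjusted p = 0.964 and 0.894). The list of LXR targets and lipid efflux had 1 riser and 3 fallers in 14, against 1.37% and 3.01% of all genes. In the sterol and fatty acid synthesis list 1 of 24 rose and 2 fell. Abca1, which exports cholesterol, had 7.02, 7.02 and 7.28 at 20 µg/ml, against 8.15, 8.07 and 8.22 at 5 µg/ml, a fall of 1.04 ± 0.23 (adjusted p = 0.0105). It was not called without replicate 1 at 20 µg/ml (adjusted p = 0.0566, within 5.23e-06 to 0.0671 over its alternatives). Plin2, which coats lipid droplets, rose by 0.77. Scd2, a fatty acid desaturase, fell by 0.64 and was not called after rescaling to a common spread (adjusted p = 0.233, within 3.29e-06 to 0.233 over its alternatives). Emp1, a membrane protein, rose by 1.92, and Plaur, the urokinase receptor, by 1.56.

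**Figure D3:**
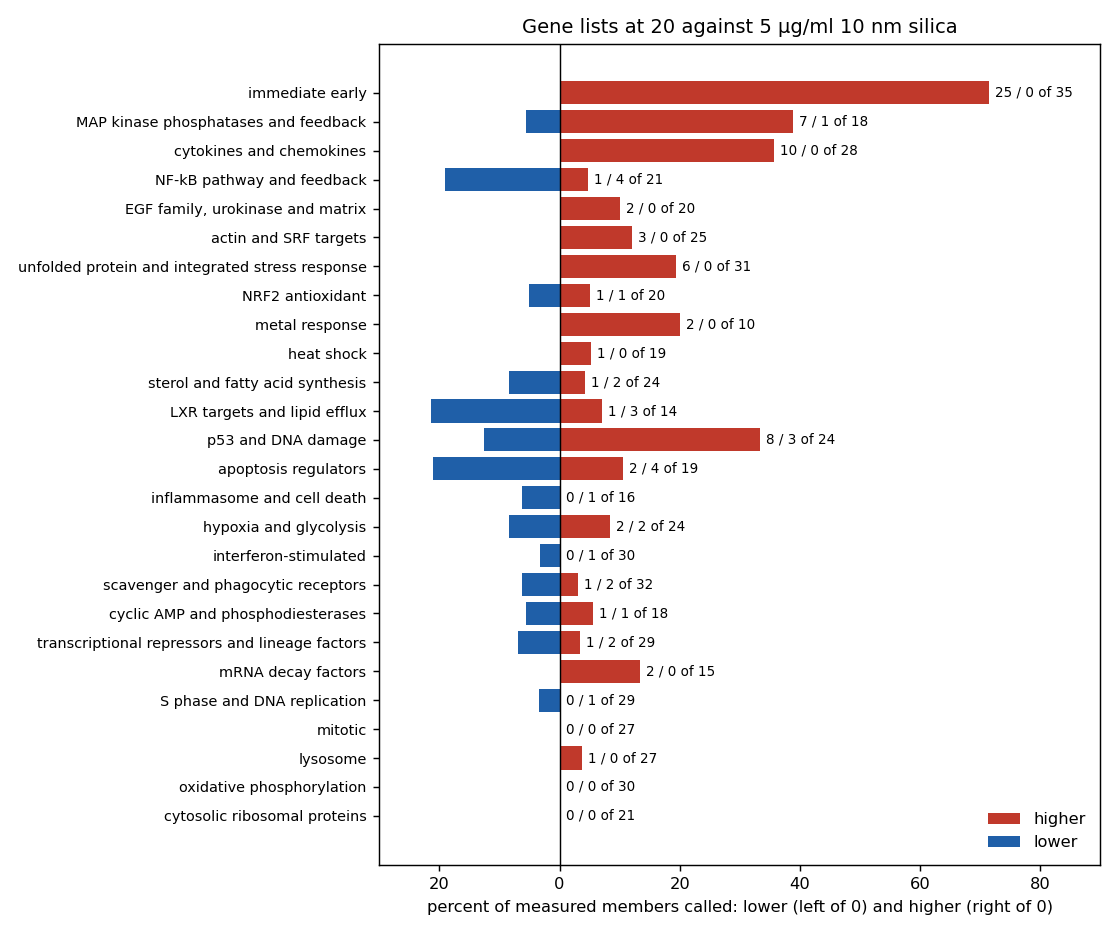
Percent of the measured members of each of 26 gene lists called higher (red, right of 0) or lower (blue, left of 0) at 20 against 5 µg/ml, with the counts higher / lower of measured beside each bar. The immediate early list has 25 / 0 of 35; mitotic, oxidative phosphorylation and ribosomal protein genes have 0 / 0.

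For several lists the counts were near or under the shares over all genes, 1.37% higher and 3.01% lower, and say nothing particular of them. Oxidative phosphorylation (30 genes), cytosolic ribosomal proteins (21) and mitotic genes (27) had 0 members called in either direction by limma, with medians of -0.03, 0.01 and -0.13. In the S phase list 1 of 29 passed, Tyms, which makes thymidylate and fell by 0.98, and in the lysosome list 1 of 27. Interferon-stimulated genes had 1 faller in 30, Ifit2, and a median change of -0.14. Ifit2 fell by 0.78 and was not called without replicate 2 at 5 µg/ml (adjusted p = 0.0529, within 0.002 to 0.116 over its alternatives). Over all lists 70 members rose and 24 fell; the falls numbered 12 without replicate 2 at 5 µg/ml and 15 without replicate 1 at 20 µg/ml.

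The falls were smaller than the rises and were led by a repressor. Gfi1, a zinc finger repressor of the blood lineages, had 4.52, 4.55 and 4.27 at 20 µg/ml, against 6.20, 6.38 and 5.87 at 5 µg/ml. It fell by 1.71 ± 0.16 (adjusted p = 2.86e-06), and the groups were over 1 log2 unit apart. Its values at 20 µg/ml lie near the low end of the scale, and no fold is given. Zfp958 had 6.16, 6.49 and 5.92 at 20 µg/ml, against 7.41, 7.99 and 7.75 at 5 µg/ml (fall of 1.53 ± 0.16, adjusted p = 9.4e-06). Zfp61 had 4.02, 4.32 and 4.13 at 20 µg/ml, against 5.47, 5.65 and 5.39 at 5 µg/ml (fall of 1.34 ± 0.16, adjusted p = 4.44e-05). Both are named as zinc finger genes, and for both the groups did not overlap. As with Gfi1, the values of Zfp61 at 20 µg/ml lie near the low end of the scale.

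Signalling and surface genes were among the other large falls. Cd200r1, an inhibitory receptor of macrophages, had 6.50, 6.57 and 6.53 at 20 µg/ml, against 7.39, 7.95 and 7.79 at 5 µg/ml, and fell by 1.18 ± 0.14 (adjusted p = 5.47e-05). Tifa, an adaptor of TRAF proteins, had 6.15, 6.01 and 6.02 at 20 µg/ml, against 7.08, 7.38 and 7.05 at 5 µg/ml, and fell by 1.12 ± 0.10 (adjusted p = 1.85e-06). Sesn1 had 8.24, 8.27 and 7.82 at 20 µg/ml, against 9.10, 9.53 and 9.17 at 5 µg/ml (adjusted p = 5.65e-05). In each of these 3 genes the arrays at 20 µg/ml all lay below those at 5 µg/ml. Pde4b, a phosphodiesterase that degrades cyclic AMP, had 5.13, 4.84 and 4.93 at 20 µg/ml, against 5.89, 6.10 and 5.91 at 5 µg/ml, and fell by 1.0 ± 0.15 (adjusted p = 0.000591). Its values at 20 µg/ml lie within the range of the mean levels of the marker lists of other cell types (4.0 to 5.49). Txnip, the thioredoxin-binding protein, fell by 0.84 (adjusted p = 0.00387). Other falls of more than 2-fold were those of Enc1 (1.27), Tor4a (1.20), the protease Capn7 (1.19), Klhl42 (1.17), Themis2 (1.14), the RAS and RAB interactor Rin2 (1.14), Lipt2 (1.12), the deubiquitinase Stambp (1.10) and 4632415L05Rik (1.35). Enc1 has another probe set that changed by 0.05.

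**Figure D4:**
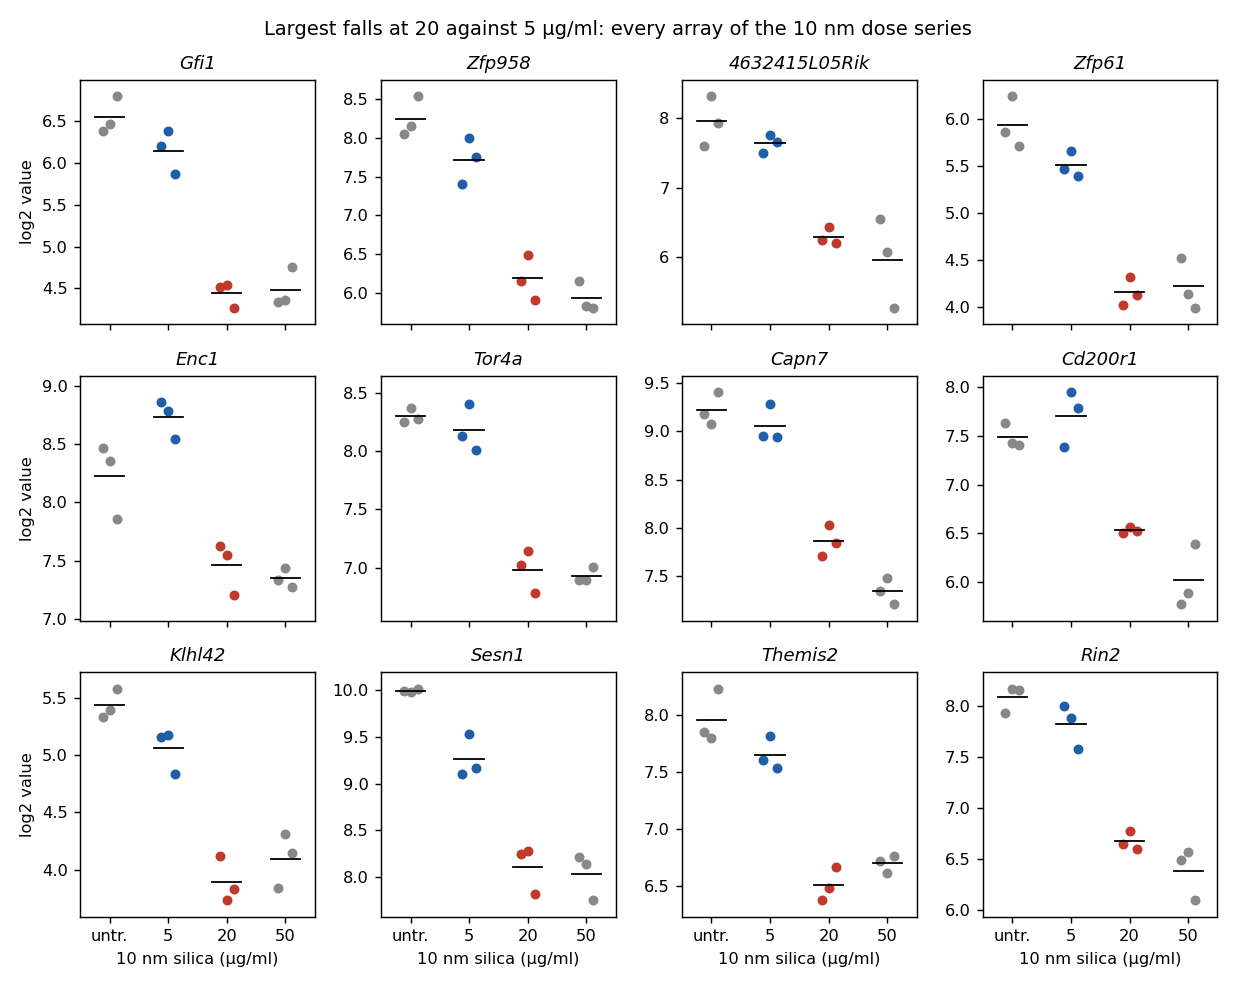
Log2 values of every array for the 12 genes with the largest falls at 20 (red) against 5 µg/ml (blue), with untreated cells and 50 µg/ml in grey; dots are arrays and lines are means of 3, and each panel has its own axis. All red points lie below all blue ones in each panel, and Enc1 lies higher at 5 µg/ml than in untreated cells by 0.51 on average, which did not pass the test.

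The risers differed in their change at the dose below. A test of the difference between the step and the preceding segment, 5 µg/ml against untreated cells, called 47 probe sets (0.208%), 28 with a more positive (0.124%) and 19 with a more negative (0.084%) change over the step. The 5 genes with the largest positive difference were Fos (3.46, adjusted p = 2.18e-05), Rhob (2.98, 0.00571), Nr4a1 (2.94, 7.79e-05), Klf2 (2.90, 2.32e-06) and Egr2 (2.88, 1.37e-05). Their changes at 5 µg/ml against untreated cells were -0.64, 1.13, 0.27, 0.70 and 0.20, of which only that of Klf2 passed (adjusted p = 0.0127). Rhob's difference was not called without replicate 3 at 5 µg/ml (2.59, adjusted p = 0.0855, within 8.32e-08 to 0.0855 over its alternatives). Rcan1 (2.65), Olr1 (2.20), Arc (1.77), Emp1 (1.71) and Nr4a2 (1.66) also passed this test, and their changes at 5 µg/ml against untreated cells lay between -0.09 and 0.26.

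Klf4, a macrophage zinc finger factor of the immediate early list whose curve was picked out after its values were seen, went down and back up. Untreated cells had 7.10, 7.66 and 7.51, cells at 5 µg/ml 5.98, 6.54 and 6.05, and cells at 20 µg/ml 7.35, 7.44 and 7.46. It fell by 1.23 at 5 µg/ml against untreated cells (adjusted p = 0.000572) and rose by 1.23 at 20 against 5 µg/ml (adjusted p = 0.00018), a difference of 2.46 (adjusted p = 0.000203). The arrays at 20 µg/ml lay within the range of the untreated ones.

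A further set of genes had risen by 5 µg/ml and rose again over the step. Cxcl2 rose by 2.07 at 5 µg/ml against untreated cells (adjusted p = 2.28e-08) and by 2.92 over the step, and the difference of 0.85 did not pass (adjusted p = 0.208). Atf3 rose by 2.06 and then 1.55, Ccl4 by 1.93 and 1.55, Plk2 by 1.86 and 1.81, Jun by 1.59 and 1.48, Rgs1 by 1.56 and 1.11, Tnf by 0.86 and 1.08 and Ccl3 by 1.47 and 0.70. Growth factor and stress genes of the same kind were Hbegf (1.73 and 0.92), Gadd45b (1.59 and 0.92) and Maff (1.55 and 0.90). For none of these did the difference between the segments pass (adjusted p between 0.208 and 1), which does not show that their slopes are equal. Dusp1 had both, rising by 1.18 at 5 µg/ml (adjusted p = 7.01e-07) and by 1.70 more than that over the step (adjusted p = 2.18e-05).

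The 19 probe sets with a more negative change over the step included genes that rose at 5 µg/ml and were lower again at 20 µg/ml. Cd83, a surface marker of activated antigen-presenting cells, had 9.67, 9.55 and 9.75 in untreated cells, 10.50, 10.40 and 10.37 at 5 µg/ml and 9.60, 9.76 and 9.71 at 20 µg/ml. It rose by 0.76 (adjusted p = 4.21e-05) and fell by 0.73 (adjusted p = 2.23e-05), so that the 20 µg/ml arrays overlapped the untreated ones. Lima1, an actin-binding protein, rose by 0.93 (adjusted p = 0.00956) and fell by 0.87 (adjusted p = 0.00437). Tent5c, a poly(A) polymerase, rose by 1.55 at 5 µg/ml and differed by -0.31 over the step without passing (adjusted p = 0.435). Enc1 and Lipt2 were the other named genes of this group, with differences of -1.78 and -1.42. The count of 19 rested on single arrays, being 10, 8 and 11 without replicates 1, 2 and 3 at 5 µg/ml, 11 without replicate 1 at 20 µg/ml and 43 without untreated replicate 3. Without one array each, Enc1 (replicate 1 at 5 µg/ml, adjusted p = 0.0564), Tent5c (replicate 3 at 5 µg/ml, 0.0559) and Lima1 (replicate 3 at 5 µg/ml, 0.0839) were not called; their alternatives spanned 7.01e-06 to 0.0564, 3.16e-07 to 0.0559 and 7.83e-05 to 0.0839. Lipt2 was not called without replicate 1 or 2 at 5 µg/ml (0.0861 and 0.106, within 0.000275 to 0.106).

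Above 20 µg/ml the curves of the strongest genes were flatter. The test of the step against the 50 over 20 µg/ml segment called 80 probe sets (0.354%), 66 with a more positive (0.292%) and 14 with a more negative (0.0619%) change over the step. Rhob (4.21, adjusted p = 0.000147), Klf2 (3.75, 3.94e-08), Nr4a1 (3.08, 3.85e-05), Ccl2 (2.85, 0.0167) and Cxcl2 (2.79, 1.48e-06) had the largest positive differences. Their changes at 50 against 20 µg/ml were -0.10, -0.14, 0.13, 0.18 and 0.13. On the falling side the largest differences were those of Gfi1 (-1.75, adjusted p = 0.00547), Zfp61 (-1.41, 0.0307), Klhl42 (-1.37, 0.0217), Themis2 (-1.34, 0.00289) and Pigh (-1.25, 0.0217). The positive count was 40 and 29 without replicates 1 and 2 at 20 µg/ml. The negative count was 9, 8 and 9 without replicates 1, 2 and 3 at 5 µg/ml and 4, 6 and 2 without replicates 1, 2 and 3 at 20 µg/ml. Ccl2 was not called without replicate 1 or 2 at 20 µg/ml (adjusted p of 0.226 and 0.156, within 1.6e-06 to 0.226) and Gfi1 not without replicate 3 at 20 µg/ml (0.0654, within 4.4e-05 to 0.0654). Zfp61, Klhl42 and Pigh lost the call without 7, 5 and 3 of the 9 arrays left out in turn. Gfi1 and Zfp61 were near the low end of the scale at 20 µg/ml, and the part of this in their differences was not tested.

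The direction of the step was also seen in arrays outside its difference of means. Those arrays did enter the shared estimate of the spread and the choice of each gene's probe set. At 50 µg/ml against untreated cells, 170 of 170 genes that rose over the step were higher and 373 of 373 that fell were lower, against 53.9% and 46.1% of all genes. With 500 nm particles, at 1000 against 250 µg/ml, 159 of the 170 risers (93.5%) were higher, against 58.2% of all genes, with a median change of 0.69. Of the 373 fallers, 346 (92.8%) were lower, against 41.8% of all genes, with a median of -0.41.

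The 500 nm comparison is the same 4-fold step in mass dose, between doses of equal nominal surface area (dose divided by diameter). It shares no array with the 10 nm step. The difference of these steps was called in 153 probe sets (0.676%), 87 with a more positive (0.385%) and 66 with a more negative (0.292%) change for 10 nm particles. The factors Klf2, Nr4a1 and Nr4a2 and the GTPase Rhob rose more with 10 nm particles. Klf2 rose by 3.60 with 10 nm particles and changed by 0.74 with 500 nm particles, a difference of 2.86 ± 0.19 (SE, adjusted p = 2.04e-07). Nr4a1 changed by 3.21 and 1.23, a difference of 1.98 (adjusted p = 0.00034), and Nr4a2 by 1.92 and 0.27, a difference of 1.65 (adjusted p = 5.82e-05). Rhob changed by 4.11 and 2.32, a difference of 1.80 (adjusted p = 0.0387), which was not called without 8 of the 12 arrays left out in turn (adjusted p within 3.43e-06 to 0.121 over its alternatives).

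Other genes, several of them inflammatory, changed less with 10 nm than with 500 nm particles. Acod1, which makes the metabolite itaconate, changed by 0.53 with 10 nm and 2.41 with 500 nm particles, a difference of -1.89 ± 0.14 (adjusted p = 7.33e-07). Rel, a subunit of NF-kB, changed by 0.28 and 1.94 (difference -1.66, adjusted p = 0.000343), and the chemokine Cxcl10 by -0.17 and 1.64 (difference -1.81, adjusted p = 0.00481). H1f2, a linker histone, changed by 0.31 and 2.49 (difference -2.17, adjusted p = 6.88e-07), and the kinase Pim1 by 0.54 and 2.25 (difference -1.71, adjusted p = 0.0192). Tnf also belonged here, with 1.08 and 2.09 (difference -1.01, adjusted p = 0.00389), as did Cxcl2 with 2.92 and 4.26 (difference -1.35, adjusted p = 0.000424). Pim1 lost the call without 6 of the 12 arrays left out in turn (adjusted p within 2.25e-06 to 0.0666 over its alternatives). The count of 87 was 44 to 57 without any one of 8 arrays (replicates 1 and 3 at 5 µg/ml, 1 and 2 at 20 µg/ml, 3 at 1000 µg/ml, and 1, 2 and 3 at 250 µg/ml), and the count of 66 was 43 without replicate 2 at 250 µg/ml.

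**Figure D5:**
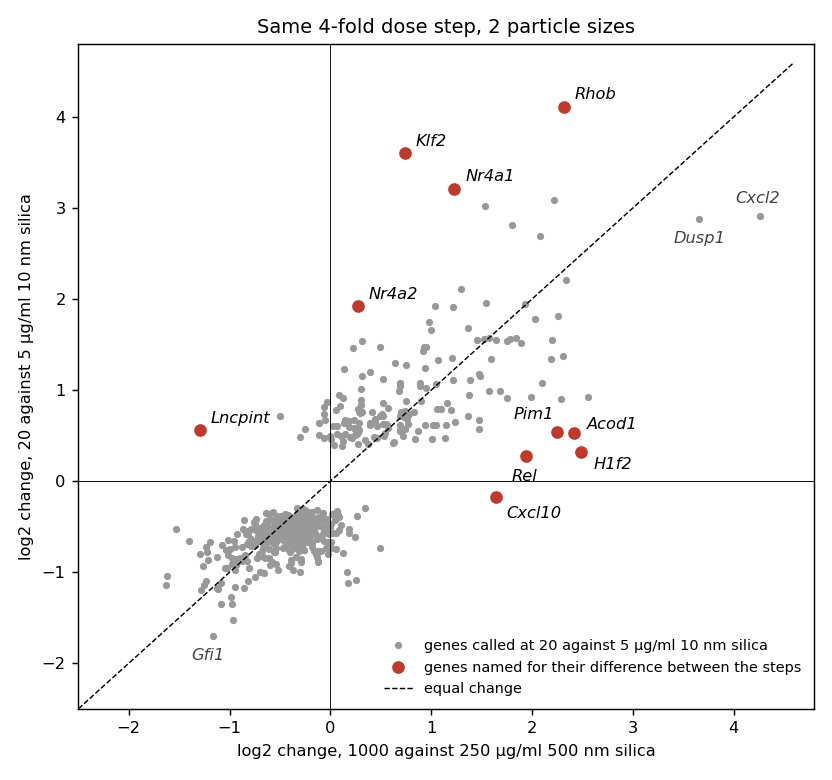
Log2 change at 20 against 5 µg/ml of 10 nm silica (vertical) and at 1000 against 250 µg/ml of 500 nm silica (horizontal); grey dots are the 543 genes called in the 10 nm step, red dots the 10 genes named for the difference between the steps, and the dashed line marks equal change. Klf2, Nr4a1, Nr4a2 and Rhob lie above the line, and H1f2, Acod1, Pim1, Rel and Cxcl10 below it.

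Some calls rested on single arrays. Of 117 called list members and named genes, 26 lost the call when at least 1 of the 6 arrays was left out in turn. Besides Nfkbie, Btg2, Sesn2, Abca1 and Ifit2, these were Keap1, Mt2, Scd1, Msmo1, Pfkfb3, Pdk1, Tlr2, Tlr4, Cebpd, Ctsl, Mpeg1, Mafk, Dusp8, Csf1, Tnfsf9, Ccl3, Chac1, Slc3a2, Zmat3, Xpc and Casp9. In the fits that lost the call the adjusted p lay between 0.0519 (Chac1) and 0.206 (Xpc). Over all its own alternatives, Keap1 reached an adjusted p of 0.261, Tlr2 0.133 and Mpeg1 0.659. Other genes lay above Tlr2, among them Ctsl at 0.198 and Msmo1 at 0.166. The call of Keap1 was lost without any one of the 6 arrays.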

How the data were processed

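Each of 21 arrays, 3 in each of 7 groups, measured messenger RNA of 1 sample. Per the submitters' processing notes, RMA was the authors' tool for the deposited log10 signals; the sources used here give neither its version nor whether the arrays were processed together. The log10 base was inferred from the values, whose brightest is 22019 in base 10 and 20.3 in base 2. They were multiplied by 3.32 to give log2 values, so fold changes carry RMA's compression of dim probe sets. No columns were left unmapped. After 64 control probe sets were removed, limma 3.58.1 (R 4.3.3; lmFit, eBayes) was fitted to 22626 probe sets over all 21 arrays by group, with 14 residual degrees of freedom, and p-values were Benjamini-Hochberg adjusted over all probe sets and called under 0.05. All adjusted p-values printed are from this limma fit or its named alternatives. Differences between steps were contrasts in the same fit. The probe set with the highest mean among those with 1 symbol stood for each of 12393 genes; 20380 probe sets had 1 symbol, 691 several and 1555 none. Array values carry no read depth, and the number of arrays limits the precision.

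The genes and lists were chosen with earlier results of these data known. Named were the 15 largest rises and 15 largest falls among called genes whose arrays did not overlap, the 3 largest called changes of each list (or its smallest p), and the 5 largest called differences each way in each of 3 tests of a difference. Other list members and gene families were named after their values were seen. The 26 lists held 581 measured genes. Alternatives were 3 array scalings, a replicate block, the brighter probe sets, 1 probe set a gene, array weights, a trended robust prior, the 6 arrays alone, other probe sets and leaving out each array. Leaving out replicate 3 of both doses was added after seeing the data, because it had the smallest spread of values at each dose. The fits were tested on simulated data. Plots were made in Python 3.11.15 (matplotlib 3.10.9).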

Additional observations from a re-analysis of the deposited data

Results flagged for a closer look

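The 10 nm step (20 against 5 µg/ml) and the 500 nm step (1000 against 250 µg/ml) differed in 87 probe sets with a more positive and 66 with a more negative change for 10 nm particles, by limma's test of the difference itself at an adjusted p under 0.05. Among the genes named for it, the log2 difference was 2.86 for Klf2, 1.98 for Nr4a1, 1.86 for Lncpint, 1.80 for Rhob and 1.65 for Nr4a2. It was -2.17 for H1f2, -1.89 for Acod1, -1.81 for Cxcl10, -1.71 for Pim1 and -1.66 for Rel. Lncpint, a long non-coding RNA, had 4.86, 4.86 and 5.04 at 20 µg/ml, against 4.29, 4.12 and 4.68 at 5 µg/ml. Its groups did not overlap, but its change of 0.56 did not pass (adjusted p = 0.129), while with 500 nm particles it changed by -1.30 (adjusted p of the difference = 0.00114). The Lncpint values at 5 µg/ml lie near the low end of the scale.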

How the results depend on the processing

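Counts are probe sets higher and lower, or more positive and more negative for differences between steps. For the step (302 and 586), the replicate block gave 599 and 1166, array weights 1537 and 2486, and leaving out replicate 3 of both doses 190 and 227. It gave 180 rises with 1 probe set a gene, 303 falls with the 6 arrays alone and 331 falls after centring and rescaling. Leaving out 1 array gave 215 to 254 rises and 261 to 436 falls. For 5 µg/ml against untreated cells (110 and 30), the block gave 215 and 105, array weights 1053 and 883, rescaling 15 falls, and leaving out 1 array 75 to 103 and 5 to 28. For 50 against 20 µg/ml (0 and 0), the block gave 6 falls, array weights 421 and 539, and leaving out any array 0. For the step minus the segment before it (28 and 19), the block gave 59 and 54, array weights 936 and 1107, 1 probe set a gene 17 positive, and leaving out 1 array 19 to 32 and 8 to 43. For the step minus the segment after it (66 and 14), the block gave 124 and 50, array weights 315 and 322, the brighter probe sets 25 negative, and leaving out 1 array 29 to 68 and 2 to 14. For the step minus the 500 nm step (87 and 66), the block gave 224 and 178, array weights 1049 and 1324, rescaling 52 positive, 1 probe set a gene 37 positive, and leaving out 1 array 44 to 85 and 43 to 72. Called list members (70 and 24) became 110 and 71 with array weights; falls were 38 with the block and 12 without replicate 3 of both doses, and leaving out 1 array gave 61 to 68 and 12 to 21. The cause of these shifts was not tested, except that 1 probe set a gene tests fewer features and fits on fewer arrays have fewer samples.

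Whether the replicate numbers pair the samples is not settled, and the main fit took no account of them. Same-numbered arrays at 20 and 5 µg/ml deviated together with correlations of 0.0831, 0.416 and 0.52, the first under the limit of 0.1. As a hint from the data and not the design, 5 of 6 of these arrays correlated best with their own number. Over all groups, 50 of 63 same-numbered pairs were over 0.1, within a range of -0.326 to 0.793. The replicate block ended no call among the named genes.

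Among called results of the named genes, the direction changed only against other probe sets of the same gene, none of them called. These were Enc1 0.053, Keap1 0.74, Pfkfb3 0.13, Crem -0.35 and 6 of Ighm (0.16, 0.081, 0.13, 0.14, 0.17 and 0.074). Besides these 10, another 25 probe sets of named genes were not called where the printed one was. A further 33 were on the same side of the threshold, and 2 passed where the printed one did not. Over all genes, 2 of the 737 with any called probe set had probe sets called in both directions. Each of the 122 results of the named genes was counted once in every fit that left out 1 of its arrays. Of these counts, 763 kept their side of the threshold and 89 lost the call. Rescaling ended 9 calls, among them Scd2 (adjusted p = 0.233, within 3.29e-06 to 0.233 over its alternatives) and Dnajb1 (0.0551, within 1.45e-05 to 0.0551). With 3 arrays a group, small changes were at the limit of what could be called, and dim probe sets could not be told from background.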

Other observations

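Gene families read after their values were seen gave further groups. Of 173 measured Zfp zinc finger genes 3 rose and 12 fell, with a median change of -0.13, against 1.37% higher and 3.01% lower over all genes; besides Zfp958 and Zfp61, Zfp329 fell by 0.89 and Zfp53 by 0.88. Of 23 Zbtb genes, which encode zinc finger proteins with a BTB domain, 2 rose and 5 fell, to be set against the same shares, with Zbtb32 at 0.91 and Zbtb1 at -0.83. Of 14 Klf genes 5 rose and 0 fell, Klf3 (0.78) and Klf7 (0.54) beside Klf2, Klf6 and Klf4. Of 4 CDC2-like splicing kinases 2 rose, Clk4 by 0.74 (adjusted p = 0.00309) and Clk1 by 0.56 (adjusted p = 0.00547). Of 12 tubulin genes 3 rose, Tubb2b by 0.88, Tuba1a by 0.47 and Tubb6 by 0.40. Single risers outside the lists were Nfil3 (1.55) and Tsc22d3 (1.47), both transcriptional regulators, and F3 (1.28) and Procr (1.34), tissue factor and the protein C receptor of the clotting system.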
